A study of Mus musculus with 21 samples.

Results

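Expression of 10 genes of the blood vessel endothelium was followed in mammary tumours of sedentary and physically active mice. The genes were Pecam1, Cdh5, Kdr, Flt1, Tek, Tie1, Emcn, Eng, Angpt2 and Esm1, taken by symbol from a list of endothelial genes, and all 10 were among the 19241 genes of the tumour tables. All 12 tumours came from MMTV-PyMT mice, in which the mouse mammary tumour virus promoter drives the polyoma middle T antigen in mammary epithelium, so every group carried the same oncogene and no tumour-free tissue was compared. The 4 groups, with 3 tumours labelled as biological replicates each, were sedentary at week 12, physically active at week 12, sedentary at week 18 and physically active at week 18. Whether the week counts age or time of activity, and what form the activity took, are not given in the sources used here. Tumours of the 2 weeks are different libraries, so the week comparisons are not repeated measures of 1 tumour. Values are the normalized counts deposited by the authors, which are reads per gene divided by 1 factor per library. No gene of the list passed the limma threshold in any of the 7 comparisons, so the differences below are given with their intervals and with the values of the single tumours.

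Endothelial cells line the vessels of a tumour and are held together by junctions that contain PECAM1 (Pecam1) and VE-cadherin (Cdh5). They receive growth signals through the VEGF receptors VEGFR2 (Kdr) and VEGFR1 (Flt1), of which the latter binds VEGF-A tightly and limits signalling through VEGFR2. A separate system sets vessel stability, in which angiopoietin 1 activates the receptor TIE2 (Tek), angiopoietin 2 (Angpt2) is released by the endothelium and can oppose it, and the related receptor TIE1 (Tie1) modulates TIE2. Endoglin (Eng) is a co-receptor for BMP9 and TGF-beta family ligands, endomucin (Emcn) is a sialomucin of capillary and venous endothelium, and Esm1 encodes a secreted proteoglycan made by VEGF-stimulated tip cells of growing vessels.

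The 12 libraries held between 20838963 and 28973775 reads, and the lowest number of reads behind any value was 20 for Esm1, 47 for Angpt2, 81 for Tek and 88 for Emcn. Active replicate 3 of week 12 stood apart from the others. Its summed normalized count over 10 T and B cell genes was 21427 against 72.8 to 320 in the 11 other tumours, that over 4 genes of high endothelial venules was 8202 against 8.02 to 53.7, and that over 10 adipocyte genes was 355434 against 984 to 80427. Its sum over 8 epithelial genes was the lowest of the 12, at 57534. No gene of the T and B cell list was at 0 in it, whereas up to 2 of the 10 were at 0 in other tumours. The sum over the 10 vessel genes was 20846 in this tumour and 3709 to 8769 in the rest. The fold changes of the 10 genes and the list medians for activity at week 12 and for week in active tumours are therefore given with and without it, and the part of these other cell types in the results was not tested. In whole tumours, fewer endothelial cells and less RNA per endothelial cell cannot be told apart.

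Pan-endothelial genes outside the list were present in every tumour, with a summed normalized count over 23 genes of 4271 to 27132 and no gene at 0. Epithelial genes were high in every tumour as well, with sums over 8 genes of 57534 to 144165. Levels can be set between genes only per length, here as normalized count per kb of the longest GENCODE M21 transcript. In sedentary tumours of week 12, Pecam1 was highest with 325 ± 3.84 per kb (SD, n = 3), followed by Eng with 266 ± 13.3 and Cdh5 with 248 ± 20.8. Eng and Cdh5 did not differ beyond their spread. Kdr came next with 122 ± 37.6, then Tie1 with 110 ± 4.07, Flt1 with 97.1 ± 24.8 and Tek with 77.8 ± 13.8, and neighbours among these 4 receptors overlapped within 1 SD. The lowest levels per kb were those of Emcn with 49.7 ± 5.78, Esm1 with 32.5 ± 29.2 and Angpt2 with 27.1 ± 4.94, and Esm1 overlapped both others.

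On GRCm38 (mm10), the build named in the submitters' processing notes, GENCODE M21 places the genes on 7 chromosomes as protein-coding loci. Pecam1 spans chr11:106654217-106750628 on the minus strand and Cdh5 chr8:104101625-104144511 on the plus strand. Both VEGF receptor genes lie on the minus strand of chromosome 5, Kdr at chr5:75932827-75978458 and Flt1 at chr5:147561604-147726011. Both TIE receptor genes lie on chromosome 4, Tek at chr4:94739289-94874976 on the plus strand and Tie1 at chr4:118471191-118490061 on the minus strand. Emcn spans chr3:137341067-137432185, Eng chr2:32646595-32682669 and Esm1 chr13:113209659-113218098, all on the plus strand. Angpt2 spans chr8:18690263-18741562 on the minus strand, inside the span of Mcph1 on the other strand, and Eng overlaps Fpgs on the opposite strand. Whether the authors' counting used strand is not given in the sources used here, so reads of these overlapping pairs could be shared.

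Promoter windows of RefSeq on GRCm38.p6, 250 bases before to 50 bases after the start, were given for 7 of the 10 genes. ETS factors such as ERG bind sequences around GGAA and are known regulators of endothelial genes. The motif AGGAAG, searched on both strands (reverse complement CTTCCT), was found in 4 of the 7 windows, those of Flt1, Tie1, Emcn and Eng, and in 35.4% of 32817 RefSeq windows of the same length. The hypoxia response core ACGTG was in 0 of 7 windows and in 19.6% of all windows. The E-box CANNTG was in 6 of 7 and in 72.3%, and the GATA motif AGATAA was in 1, that of Tek, and in 11.2%. The motifs can overlap at single bases in a window, and a match describes letters only. Genes with and without AGGAAG overlapped in likeness to Pecam1, measured by Pearson's r of log2 values across the 12 tumours. Among the genes that hold it, r with Pecam1 was 0.993 for Tie1, 0.884 for Eng, 0.817 for Flt1 and 0.759 for Emcn. Among those that lack it, r was 0.948 for Kdr, 0.771 for Tek and -0.394 for Esm1. The windows below are those of 2 genes with the motif, Tie1 and Eng, and of 2 without it, Tek and Esm1. Capitals mark AGGAAG or CTTCCT, and each window is written 5′ to 3′ on the strand of its gene: Tie1 at chr4:118489800-118490099 (minus), Eng at chr2:32646345-32646644 (plus), Tek at chr4:94739039-94739338 (plus) and Esm1 at chr13:113209409-113209708 (plus).
Tie1: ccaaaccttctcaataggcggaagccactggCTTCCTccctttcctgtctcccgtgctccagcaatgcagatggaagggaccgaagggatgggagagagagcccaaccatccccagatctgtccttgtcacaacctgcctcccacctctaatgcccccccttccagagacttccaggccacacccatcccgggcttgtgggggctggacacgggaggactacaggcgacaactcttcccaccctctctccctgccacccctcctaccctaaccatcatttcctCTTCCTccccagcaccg
Eng: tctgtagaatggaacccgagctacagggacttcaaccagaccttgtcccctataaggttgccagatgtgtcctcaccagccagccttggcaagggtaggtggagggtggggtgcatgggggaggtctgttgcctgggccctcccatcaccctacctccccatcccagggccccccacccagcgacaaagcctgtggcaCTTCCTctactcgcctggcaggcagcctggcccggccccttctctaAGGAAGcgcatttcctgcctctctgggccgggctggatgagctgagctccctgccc
Tek: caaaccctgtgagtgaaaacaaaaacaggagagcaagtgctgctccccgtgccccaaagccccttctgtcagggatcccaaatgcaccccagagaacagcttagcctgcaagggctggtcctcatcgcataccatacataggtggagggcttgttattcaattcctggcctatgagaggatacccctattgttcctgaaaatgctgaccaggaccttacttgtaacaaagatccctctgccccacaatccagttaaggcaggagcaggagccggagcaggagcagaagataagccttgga
Esm1: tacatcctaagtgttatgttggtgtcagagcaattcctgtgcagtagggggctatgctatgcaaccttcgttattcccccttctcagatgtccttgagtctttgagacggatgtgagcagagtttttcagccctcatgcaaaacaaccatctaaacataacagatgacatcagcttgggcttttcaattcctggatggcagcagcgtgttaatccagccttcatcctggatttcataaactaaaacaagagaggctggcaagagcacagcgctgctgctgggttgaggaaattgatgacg

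Activity at week 12 was compared first. All 10 genes had a log2 fold change above 0 in active against sedentary tumours, where 51.7% of 19162 genes tested did, and the median over the 10 was 0.71 against 0.01 over all genes. Leaving out active replicate 3, the median was 0.41 against 0.00 over all genes, with 9 of 10 above 0 where 50.2% of all genes were. With limma, 0 of 10 genes had an adjusted p under 0.05, as did 0.517% of all genes, and 1 of 10, Emcn, had an unadjusted p under 0.05, as did 4.09%. By edgeR and DESeq2 on recovered reads the count was also 0. In 5 of 10 genes, Pecam1, Cdh5, Tie1, Emcn and Eng, all 3 active tumours lay above all 3 sedentary ones, which held for 4.36% of all genes, and 0 of 10 lay wholly below, against 4.78%. The same 5 genes did not overlap without active replicate 3, where 9.64% of all genes lay wholly above, and without active replicate 2 the count was 9 of 10 against 15.5%. With scaling by total reads Eng overlapped and the count was 4.

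Skeletal muscle genes moved with this comparison. All 10 in the list fell in active tumours at week 12, with a median log2 fold change of -7.36, and theirs was the only one of the 17 lists with genes past the limma threshold. By limma 10 of 10 passed, against 0.517% of all genes. Without active replicate 3 the median was -7.17 and the count fell to 2 of 10. The share of all genes past the threshold in that fit is not given here, so this fall cannot be set against it. Their summed normalized count was 53850 to 117054 in sedentary tumours of week 12, 292 to 1204 in active ones and 407 to 14816 at week 18. The part of muscle RNA in the vessel values of sedentary tumours was not tested.

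**Figure D1:**
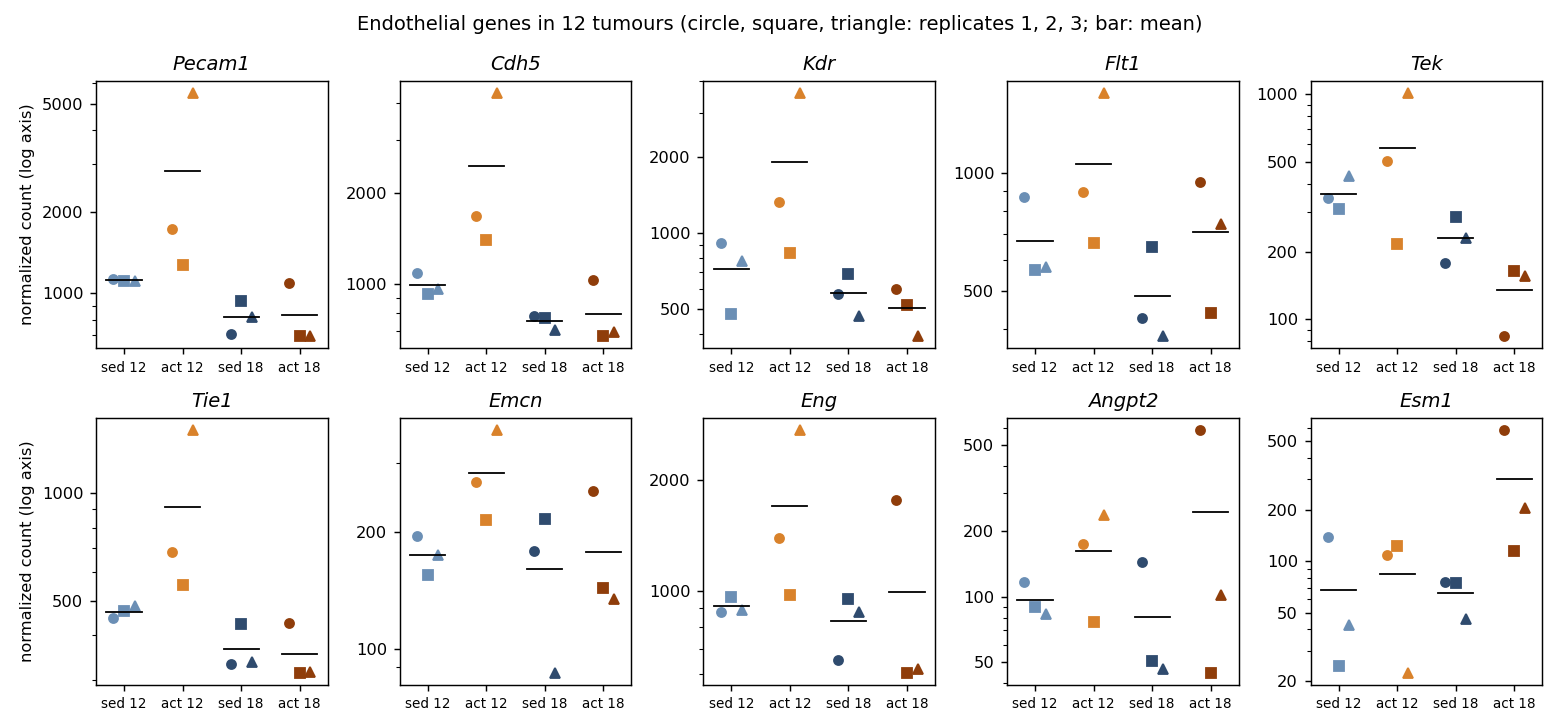
Normalized counts of the 10 endothelial genes in each of the 12 tumours on a log axis, 1 panel per gene, with the 4 groups along the x axis, points for single tumours and bars for group means. Active replicate 3 of week 12 is the highest point for 8 genes, and active replicate 1 of week 18 is the highest for Angpt2 and Esm1.

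The junction gene Pecam1 had normalized counts of 1133, 1110 and 1110 in sedentary tumours of week 12 and 1737, 1273 and 5491 in active ones. The sedentary tumours were nearly equal, and the active ones spread over 4.31-fold. Pecam1 had a log2 fold change of 1.04 with a 95% interval from -0.37 to 2.45 (limma adjusted p = 0.970), and 0.41 without active replicate 3. For Cdh5, which encodes the cadherin of endothelial adherens junctions, the values were 1085, 925 and 963 in sedentary and 1679, 1403 and 4300 in active tumours. The log2 fold change was 1.13 with an interval from -0.00 to 2.26 (limma adjusted p = 0.970) and 0.63 without active replicate 3. Emcn, the capillary and venous sialomucin, had 196, 155 and 174 in sedentary and 269, 214 and 365 in active tumours. Its log2 fold change of 0.66 had an interval from 0.05 to 1.27 (limma adjusted p = 0.970), and it was 0.46 without active replicate 3.

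Among the receptors at week 12, Kdr had 912, 477 and 780 in sedentary tumours and 1328, 836 and 3593 in active ones. Its groups overlapped, since active replicate 2 lay below sedentary replicate 1. Kdr had a log2 fold change of 1.18, the largest of the 10, with an interval from -0.31 to 2.68, and 0.59 without active replicate 3. Flt1, the decoy-like VEGF receptor, had 866, 566 and 575 in sedentary and 892, 663 and 1598 in active tumours, a log2 fold change of 0.58 that was 0.23 without that tumour. Tie1 had 448, 467 and 482 in sedentary and 686, 554 and 1504 in active tumours, a log2 fold change of 0.83 with an interval from -0.16 to 1.83. Here the groups did not overlap, and the value without active replicate 3 was 0.41. Tek, the angiopoietin receptor, had 346, 308 and 433 in sedentary and 505, 215 and 1013 in active tumours. Active replicate 2 held the lowest Tek value of the 6, and the log2 fold change of 0.42 became -0.12 without active replicate 3. Eng had 881, 964 and 891 in sedentary and 1389, 975 and 2722 in active tumours, a log2 fold change of 0.76, or 0.35 without that tumour.

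The genes of growing vessels were less even at week 12. Angpt2 had 116, 89.6 and 83.3 in sedentary and 175, 76.2 and 239 in active tumours, and the groups overlapped. The log2 fold change of Angpt2 was 0.62 with an interval from -0.52 to 1.76, and 0.27 without active replicate 3. Esm1 had 138, 24.2 and 42.1 in sedentary and 108, 123 and 22.3 in active tumours. The tumour that was highest in 8 of the 10 genes, active replicate 3, was the lowest of all 12 in Esm1. Esm1 had a log2 fold change of 0.35 with an interval from -1.95 to 2.66, and 1.13 without that tumour.

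**Figure D2:**
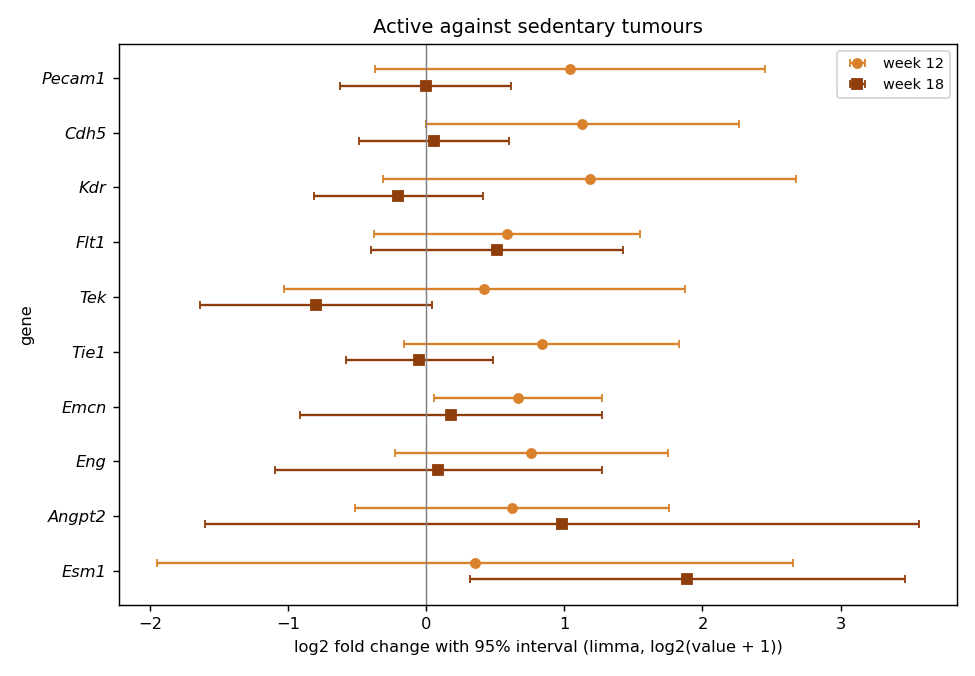
Log2 fold changes of active over sedentary tumours for the 10 genes at week 12 and at week 18, with points for limma estimates on the log2(value + 1) scale and lines for 95% intervals. At week 12 all 10 estimates are above 0, from 0.35 for Esm1 to 1.18 for Kdr, and at week 18 they run from -0.80 for Tek to 1.89 for Esm1.

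At week 18 the picture of activity differed from gene to gene. The median log2 fold change over the 10 genes was 0.07, against 0.01 over all genes, with 6 of 10 above 0 where 51.1% of all genes were. Without active replicate 1 the median was -0.17, with 2 of 10 above 0. With scaling by total reads, Cdh5 was at -0.02 in place of 0.06. With limma, 0 of 10 genes had an adjusted p under 0.05, as did 0% of 18939 genes tested, and 1 of 10, Esm1, had an unadjusted p under 0.05, as did 5.97%. By edgeR and DESeq2 the count was 0. Esm1 was the 1 gene with all 3 active tumours above the sedentary ones, against 6.03% of all genes, and Tek the 1 gene with all 3 below, against 7.57%. Without active replicate 1 the count below was 5 of 10, Pecam1, Cdh5, Tek, Tie1 and Eng, against 12.1% of all genes.

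Esm1, the proteoglycan gene of tip cells, had normalized counts of 75.6, 74.9 and 45.6 in sedentary tumours of week 18 and 584, 115 and 203 in active ones. The lowest active tumour was above the highest sedentary tumour, and active replicate 1 was the highest of all 12. The means were 65.4 ± 17.1 in sedentary and 300.5 ± 249 in active tumours (SD, n = 3 each). The log2 fold change of 1.89 had a standard error of 0.63 and an interval from 0.31 to 3.47 (limma adjusted p = 0.824). Without active replicate 1 it was 1.25. In the authors' deposited table Esm1 also had the smallest p of the 10 genes in either week, with a log2 fold change of 2.21 and an adjusted p of 0.136. That table held 0 of 10 genes with an adjusted p under 0.05 at either week.

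Tek ran the other way at week 18, with 178, 284 and 229 in sedentary and 84.3, 164 and 156 in active tumours. Active replicate 1, the highest in Esm1, was the lowest of all 12 in Tek. The log2 fold change of Tek was -0.80 with an interval from -1.64 to 0.04 (limma adjusted p = 0.824), and -0.50 without active replicate 1. Tie1, its partner receptor, had 331, 430 and 336 in sedentary and 434, 314 and 315 in active tumours, and its log2 fold change was -0.05 with an interval from -0.59 to 0.48. Angpt2 had 145, 50.6 and 46.6 in sedentary and 589, 44.6 and 102 in active tumours. Its log2 fold change of 0.98, with an interval from -1.61 to 3.57, rested on active replicate 1 and was -0.05 without it.

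The junction genes Pecam1 and Cdh5 were close between the groups at week 18, and the intervals of Emcn, Flt1 and Eng were wider. Pecam1 had 706, 935 and 817 in sedentary and 1098, 697 and 698 in active tumours, and the log2 fold change was -0.0046 with an interval from -0.63 to 0.62. Cdh5 had 779, 773 and 703 in sedentary and 1028, 671 and 690 in active tumours, with a log2 fold change of 0.06 and an interval from -0.49 to 0.60. Log2 changes of 1 or more in either direction lay outside both intervals. Emcn had 179, 216 and 87.2 in sedentary and 254, 143 and 135 in active tumours, a log2 fold change of 0.18 with an interval from -0.91 to 1.27. Kdr had 577, 691 and 469 in sedentary and 601, 518 and 392 in active tumours. The log2 fold change of Kdr was -0.20 with an interval from -0.82 to 0.41. Flt1 had 427, 649 and 384 in sedentary and 946, 438 and 742 in active tumours, a log2 fold change of 0.51 with an interval from -0.40 to 1.42. Eng had 652, 955 and 880 in sedentary and 1763, 603 and 618 in active tumours. Its log2 fold change of 0.09 had an interval from -1.10 to 1.27 and became -0.42 without active replicate 1.

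Active replicate 1 of week 18 held the highest value of its group in 9 of the 10 genes and the lowest in Tek. It also held the highest sum over 10 hypoxia genes of the 12 tumours, 96249 against 27658 to 81244 in the rest, and the lowest sum over 10 adipocyte genes, 984. Vegfa, the main VEGF ligand and itself in the hypoxia response, stood at 5731 in this tumour, at 6196 in sedentary replicate 1 of week 12 and between 1038 and 3196 in the others. All 10 hypoxia genes had a log2 fold change above 0 in active against sedentary tumours at week 18, where 51.1% of all genes did, with a median of 0.98, or 0.66 without active replicate 1. By limma and edgeR 0 of 10 passed, 3 of 10 had an unadjusted limma p under 0.05, against 5.97% of all genes, and DESeq2 called 1, against 0.269%. The part of these other genes in the values of Esm1, Tek and Angpt2 was not tested.

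The week comparison asked how the vessel genes differed between tumours of week 18 and week 12. In sedentary tumours 9 of 10 genes had a log2 fold change below 0 for week 18 over week 12, where 47% of 19241 genes were above 0, and the median was -0.38 against -0.02 over all genes. With limma 0 of 10 had an adjusted p under 0.05, as did 0.0052% of all genes, and 0 of 10 had an unadjusted p under 0.05, as did 3.64%. By edgeR and DESeq2 the count was 0. Pecam1, Cdh5, Tek and Tie1 lay wholly below at week 18, 4 of 10 genes where 5.95% of all genes did, or 3 with scaling by total reads, where Tie1 overlapped. Wholly above lay 0 of 10, against 4.34%. Pecam1 was 1117 ± 13.2 at week 12 and 819 ± 115 at week 18 (SD, n = 3 each). This was a difference of -0.46 on the log2 scale, with an interval from -1.48 to 0.57 (limma adjusted p = 1.00). Limma intervals and p-values here use a spread shared by all 12 tumours, active replicate 3 of week 12 included. They do not measure the spread of sedentary tumours alone. With only the 6 sedentary tumours in the fit, 0 of 10 had a limma adjusted p under 0.05. Tek had the largest difference, from 362 ± 64.4 to 230 ± 53.1, a log2 fold change of -0.66 with an interval from -1.78 to 0.46. Esm1 was the gene with a value above 0, at 0.28, though edgeR and DESeq2 gave -0.04 and -0.06.

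In active tumours 9 of 10 genes, all but Esm1, had a log2 fold change below 0, with a median over the 10 of -1.04 against -0.03 over all genes, where 47.5% of genes were above 0. Leaving out active replicate 3 of week 12, the median was -0.66 against -0.02, with 8 of 10 below 0 where 48.1% of genes were above it. This comparison shares its week 12 tumours with the activity comparison of week 12 and its week 18 tumours with that of week 18. With limma 0 of 10 had an adjusted p under 0.05, as did 0.0156% of all genes, and 5 of 10, Pecam1, Cdh5, Kdr, Tek and Tie1, had an unadjusted p under 0.05, as did 17.7%. These 5 genes also lay wholly below at week 18, where 12.7% of all genes did, while 0 of 10 lay wholly above, against 12.1%. The 5 genes still lay wholly below without active replicate 3 of week 12, where 16.9% of all genes did. The call depended on the test. By edgeR 0 of 10 passed, as did 0% of all genes, and by DESeq2 these 5 passed, as did 8.74%. Without active replicate 3 of week 12, DESeq2 called 4 of the 5, all but Kdr, and 2.08% of all genes, and edgeR called 0 of 10.

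**Figure D3:**
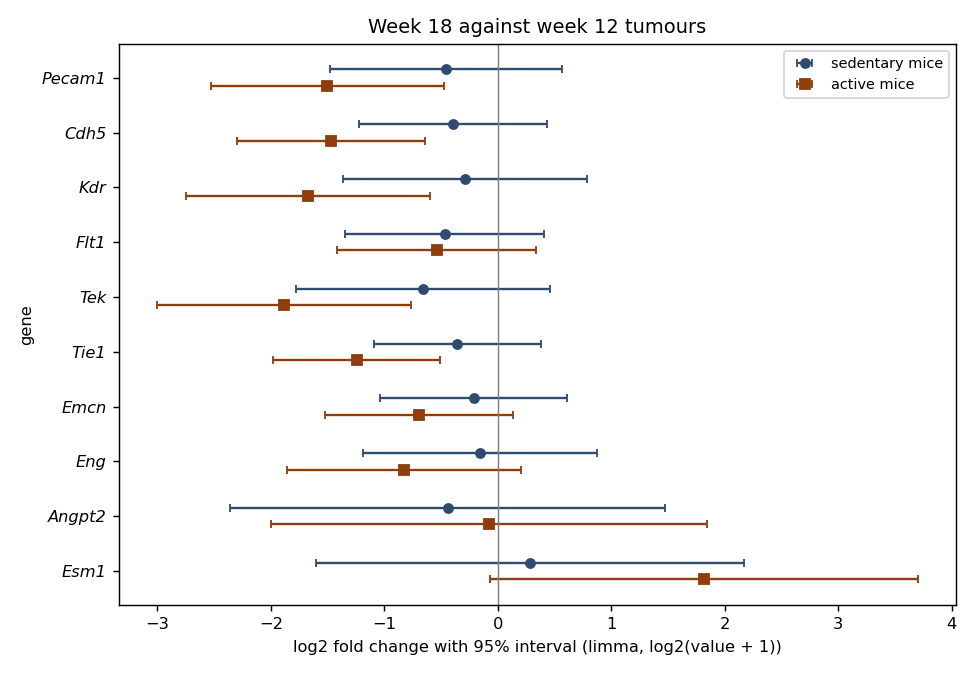
Log2 fold changes of week 18 over week 12 for the 10 genes in sedentary and in active tumours, with points for limma estimates on the log2(value + 1) scale and lines for 95% intervals. In active tumours the estimates run from -1.88 for Tek to 1.82 for Esm1, and those of Pecam1, Cdh5, Kdr, Tek and Tie1 have intervals below 0.

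Lists of other cell types had medians away from 0 in the week comparison as well. All 10 adipocyte genes had a log2 fold change below 0, with a median of -1.92 in sedentary and -4.97 in active tumours, the latter -3.85 without active replicate 3 of week 12. In active tumours 0 of 10 adipocyte genes passed by limma or edgeR, and 10 of 10 had an unadjusted limma p under 0.05, where 17.7% of all genes did. DESeq2 called 10 of 10, against 8.74% of all genes, or 7 of 10, against 2.08%, without that tumour. Their summed normalized count was 15425 to 355434 in active tumours of week 12 and 984 to 4801 in those of week 18. The 10 skeletal muscle genes had medians of opposite sign, -4.77 in sedentary and 3.64 in active tumours, the latter 3.49 without active replicate 3 of week 12. An unadjusted limma p under 0.05 was held by 10 of 10 of them in sedentary tumours, against 3.64% of all genes, and by 9 of 10 in active ones, against 17.7%. By limma and edgeR 0 of 10 passed at either activity, and DESeq2 called all 10 higher in active tumours, or 4 of 10 without that tumour. In sedentary tumours DESeq2 called 7 of 10 lower, against 0.411% of all genes, or 4 of 10, against 0.503%, in the fit without it. The 10 T and B cell genes had medians of -1.03 in sedentary and -3.06 in active tumours, the latter -1.34 without active replicate 3 of week 12. Epithelial genes had a median of 0.57 in active tumours, or 0.19 without it. The part of these cell types in the vessel values was not tested.

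Among the junction genes, Pecam1 averaged 2834 ± 2313 in active tumours of week 12 and 831 ± 231 in those of week 18 (SD, n = 3 each). Its log2 fold change was -1.50 with an interval from -2.53 to -0.48 (limma adjusted p = 0.202), and -0.87 without active replicate 3 of week 12. Cdh5 averaged 2461 ± 1599 and 796 ± 201, a log2 fold change of -1.47 with an interval from -2.30 to -0.64 (limma adjusted p = 0.183), and -0.97 without that tumour. Emcn had a log2 fold change of -0.70 with an interval from -1.52 to 0.13, and -0.50 without it. The adjusted p of DESeq2 was 0.00617 for Pecam1 and 0.00180 for Cdh5, and over the alternatives tried the adjusted p reached at most 0.412 for each of these genes.

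The receptors Kdr and Tek had larger values than the junction genes, and Tie1 a smaller one. Kdr averaged 1919 ± 1471 at week 12 and 504 ± 105 at week 18, a log2 fold change of -1.67 (limma adjusted p = 0.193, DESeq2 adjusted p = 0.00327). Tek averaged 578 ± 404 and 135 ± 44.0, and its log2 fold change of -1.88 had an interval from -3.0 to -0.76 (limma adjusted p = 0.188, DESeq2 adjusted p = 0.00167). Without active replicate 2 of week 12, the low one in Tek, the value was -2.46 and the limma adjusted p 0.0472, the only call by limma among the fits that left out 1 tumour. Genes in general separated more without that tumour, since 23.8% of all genes then lay wholly below at week 18, against 12.7% with it. Tie1 averaged 915 ± 515 and 354 ± 69.0, a log2 fold change of -1.24 (limma adjusted p = 0.187, DESeq2 adjusted p = 0.00434). The highest adjusted p over the alternatives was 0.412 for Kdr, Tek and Tie1 alike. Without active replicate 3 of week 12, the limma values were -1.08 for Kdr, -1.34 for Tek and -0.82 for Tie1. Flt1 and Eng had smaller values, -0.54 and -0.83, with intervals that held 0, and were at -0.19 and -0.42 without that tumour.

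Esm1 stood apart from the other 9 genes in this comparison too. It averaged 84.4 ± 54.3 in active tumours of week 12 and 300.5 ± 249 in those of week 18, and its log2 fold change of 1.82 had an interval from -0.07 to 3.70 (limma adjusted p = 0.290). It was 1.04 without active replicate 3 of week 12 and 1.17 without active replicate 1 of week 18. Angpt2 averaged 163 ± 81.8 and 245 ± 299 (SD, n = 3 each), and its log2 fold change of -0.08 had an interval from -2.00 to 1.84, while edgeR gave 0.61 and DESeq2 0.58. By limma it was 0.27 without active replicate 3 of week 12. Its mean was higher at week 18 while its mean of logarithms was lower, because 1 tumour of week 18 held 589 and the others 44.6 and 102.

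The test of whether activity acted differently at the 2 weeks used all 12 tumours. The difference of the activity effects, week 18 minus week 12, ran from -1.39 for Kdr to 1.54 for Esm1, with a median over the 10 genes of -0.78 against -0.02 over all genes, or -0.35 without active replicate 3 of week 12. It was above 0 in 2 of 10 genes, Angpt2 and Esm1, where 48.5% of all genes were. By limma, 0 of 10 genes had an adjusted p under 0.05, as did 0.0104% of all genes, and 0 of 10 had an unadjusted p under 0.05, as did 6.33%, and by edgeR and DESeq2 the count was 0. The smallest adjusted p among the 10 was 0.770. The interval of Kdr ran from -2.91 to 0.13 and that of Cdh5, at -1.07, from -2.24 to 0.09. A difference between the weeks in the response to activity was therefore not shown for any of the 10 genes.

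Averaged over both weeks, the activity effect was above 0 in 9 of 10 genes, with Tek at -0.19, where 51.9% of all genes were above 0. The limma count with an adjusted p under 0.05 was again 0 of 10, against 0.0052% of all genes, and 1 of 10, Cdh5 at 0.59, had an unadjusted p under 0.05, against 4.53%. By edgeR and DESeq2 the count was 0. Averaged over activity, the week effect was below 0 in 9 of 10 genes, where 45.9% of all genes were above 0. It was -0.98 for Pecam1 and Kdr, -0.93 for Cdh5, -1.27 for Tek, -0.80 for Tie1 and 1.05 for Esm1. With limma 0 of 10 had an adjusted p under 0.05, as did 0.0052%, and 5 of 10 had an unadjusted p under 0.05, as did 13.2%. By edgeR the count was 0 of 10, against 0% of all genes. By DESeq2 it was 5 of 10, against 3.75%, and 4 of 10, against 1.51%, without active replicate 3 of week 12.

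Ratios within a tumour set one gene of the list against another, and they are given as descriptions. The log2 ratio of Esm1 to Pecam1 was -0.91, -2.59 and -1.77 in active tumours of week 18, above all 9 other tumours. It was -3.20, -3.62 and -4.13 in sedentary tumours of week 18, -3.03, -5.46 and -4.69 in sedentary tumours of week 12 and -3.99, -3.37 and -7.88 in active tumours of week 12. The lowest of the 12 was active replicate 3 of week 12, the tumour with the most Pecam1. The log2 ratio of Tek to Tie1 averaged -0.38 ± 0.22 in sedentary and -0.79 ± 0.50 in active tumours of week 12, and -0.68 ± 0.19 and -1.43 ± 0.80 in those of week 18 (SD, n = 3 each). At week 18 the 3 active tumours, at -2.35, -0.93 and -1.01, lay below the sedentary ones, at -0.89, -0.60 and -0.55. These ratios share genes and tumours with the fold changes above and are not separate evidence.

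**Figure D4:**
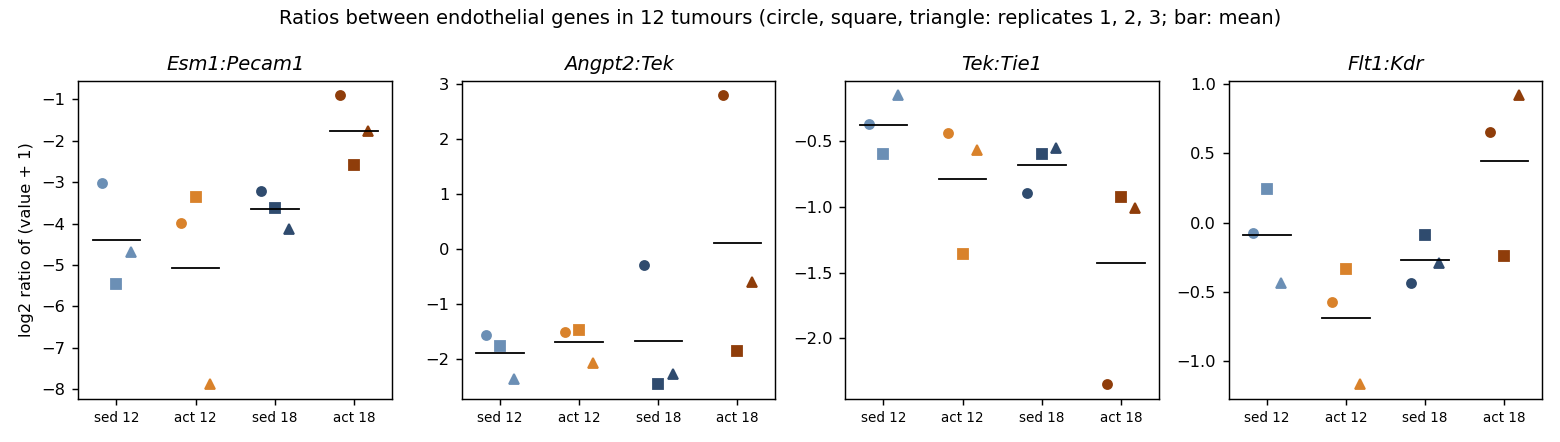
Log2 ratios between endothelial genes in each of the 12 tumours, with the 4 groups along the x axis, points for single tumours and bars for group means. The Esm1 to Pecam1 ratio is highest in the 3 active tumours of week 18, from -2.59 to -0.91.

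The ratio of Angpt2 to Tek, ligand to receptor, was 2.79, -1.86 and -0.61 on the log2 scale in active tumours of week 18, and from -2.47 to -0.30 in the 9 others. Active replicate 1 of week 18 was the only tumour above 0. The ratio of Angpt2 to Angpt1, which encodes the activating ligand, was 1.70 in the same tumour and from -3.22 to -0.44 in the other 11. The log2 ratio of Flt1 to Kdr was 0.65, -0.24 and 0.92 in active tumours of week 18, and -0.57, -0.33 and -1.17 in active tumours of week 12. The sedentary values lay between -0.44 and 0.24 at both weeks. Kdr to Pecam1 was steadier, with group means from -0.71 ± 0.24 to -0.51 ± 0.26.

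Likeness across tumours was measured by Pearson's r of log2(value + 1), as a description over 12 tumours that share 4 groups and 1 outlying library. Pecam1 and Tie1 were most like each other, with r of 0.993, and 0.982 without active replicate 3 of week 12. Cdh5 was most like Pecam1 (0.983) and Kdr most like Cdh5 (0.955). Flt1 was most like the pericyte gene Rgs5 (0.933), Emcn most like Bcl6b (0.899), which encodes an endothelial transcriptional repressor, and Eng most like Zbtb46 (0.966). Tek was most like Pnpla3 (0.981), a lipid droplet gene of adipocytes and liver. Angpt2 was most like Xxylt1 (0.935) and Esm1 most like Spidr (0.958). Without active replicate 3 of week 12 the nearest gene was another for 5 of the 10. It was then 4833418N02Rik for Kdr (0.887), Apold1 for Flt1 (0.918), Cd109 for Emcn (0.882), Gpihbp1 for Angpt2 (0.946) and Tank for Esm1 (0.966). Between genes of the list, Tek and Esm1 had r of -0.74, and -0.65 without that tumour. Esm1 and Pecam1 had r of -0.39, and 0.01 without it.

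Outside the list, the 10 genes most like the mean log2 level of the 10 were Esam, Septin4, Gpr4, Gja4, Ptprm, Bcl6b, Acp2, Rgs5, Mcam and Amotl2, with r from 0.910 to 0.957. Without active replicate 3 of week 12 the r of these genes ran from 0.802 to 0.906. Esam encodes an endothelial junction molecule, Gja4 an arterial connexin, and Rgs5 and Mcam are markers of pericytes. Over 23 pan-endothelial genes the median r with the mean log2 level of the 10 was 0.834, against -0.06 over 13628 genes. The mean log2 level of these 23 genes had an r of 0.903 with it, and 0.785 without active replicate 3 of week 12. Lists of other roles were like it too, with 0.804 for high endothelial venule genes, 0.802 for VEGF genes and 0.766 for T and B cell genes. Without that tumour these were 0.523, 0.685 and 0.355, while tip cell genes went from 0.456 to 0.798. Epithelial genes had the lowest r over the 12 tumours, -0.438.

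**Figure D5:**
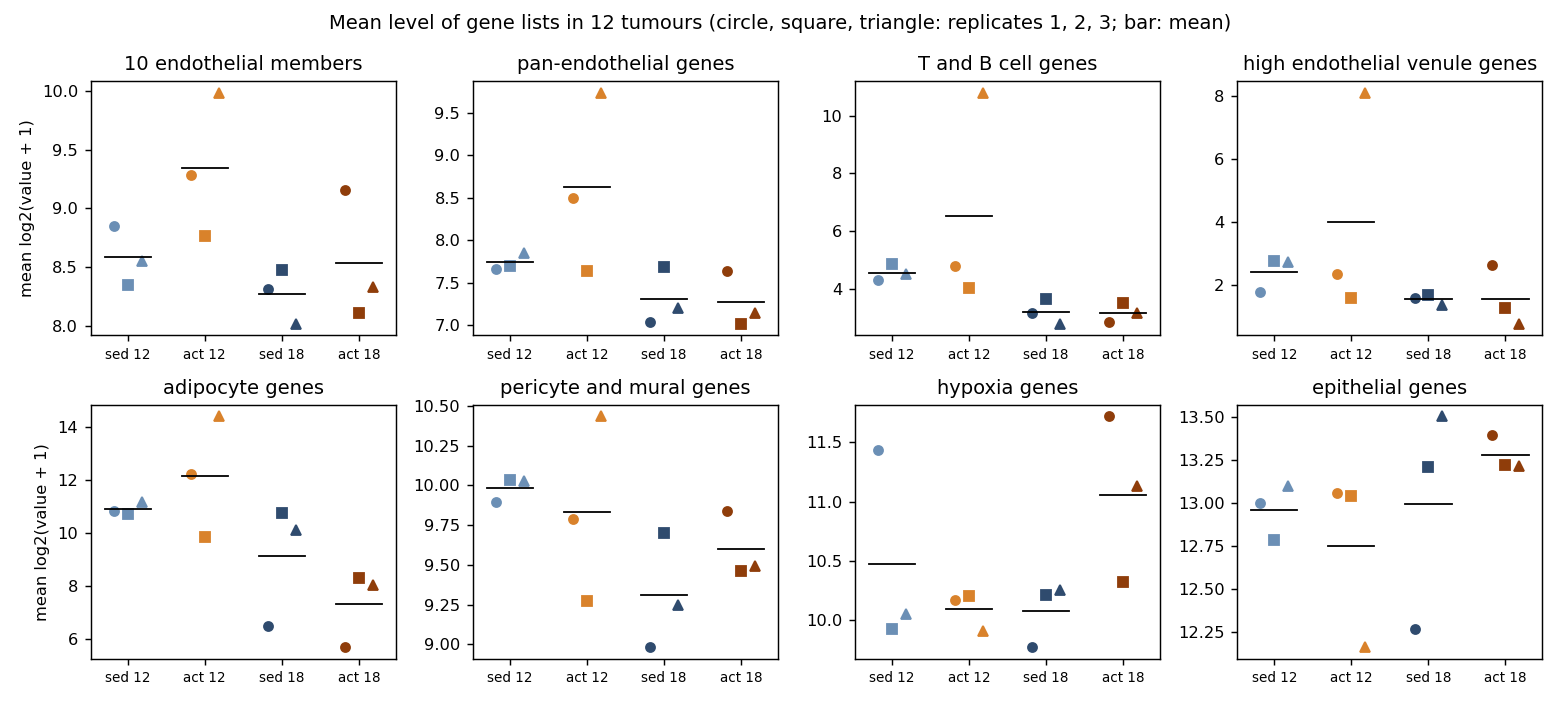
Mean log2(value + 1) of gene lists in each of the 12 tumours, with the 4 groups along the x axis and points for single tumours. Active replicate 3 of week 12 is the highest of the 12 for the endothelial, T and B cell and adipocyte lists.

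The other vessel genes were taken from lists by role. Of 23 pan-endothelial genes, 23 had a log2 fold change above 0 in active tumours at week 12, where 51.7% of all genes did. The median over the 23 was 0.90, and with active replicate 3 left out it was 0.33, with 21 of 23 above 0. Their mean log2 level was 7.67 to 7.86 in sedentary and 7.64 to 9.74 in active tumours of week 12, and active replicate 2 lay below every sedentary tumour. At week 18, 9 of 23 were above 0, against 51.1% of all genes, with a median of -0.18, or -0.27 with 4 of 23 above 0 without active replicate 1. For week 18 over week 12 the medians were -0.39 in sedentary and -1.39 in active tumours, with 22 of 23 below 0 in each, where 47% and 47.5% of all genes were above 0. In active tumours the median was -0.81, again with 22 of 23 below 0, without active replicate 3 of week 12. By limma and by edgeR 0 of 23 passed the threshold in any of these comparisons, and 17 of 23 had an unadjusted limma p under 0.05 for week in active tumours, where 17.7% of all genes did, or 10 of 23, against 10.7%, without active replicate 3 of week 12. DESeq2 called 15 of 23 lower at week 18 in active tumours, where it called 8.74% of all genes, among them Esam, Robo4, Sox17, Sox18 and Erg. Without active replicate 3 of week 12 it called 3 of 23, Ptprb, Ushbp1 and Adgrl4, against 2.08% of all genes. In the other 3 comparisons DESeq2 called 0 of 23.

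Among 8 other VEGF ligands and receptors, 0 passed by limma or edgeR in any comparison, and the median log2 fold changes for activity were 0.37 at week 12 and 0.29 at week 18. They were -0.02 without active replicate 3 of week 12 and 0.11 without active replicate 1 of week 18. Vegfa had the largest value at week 18, 1.01 (limma adjusted p = 0.824). The VEGF co-receptor Nrp1 had 1308, 597 and 3048 in active tumours of week 12 against 783 ± 66.1 in sedentary ones, so active replicate 3 was again the highest. DESeq2 called Nrp1 lower at week 18 in active tumours, where it called 8.74% of all genes, though not without that tumour. Of 5 other genes of the angiopoietin pathway 0 passed by limma or edgeR. Ptprb, the phosphatase that dampens TIE2, had a log2 fold change of -1.97 for week in active tumours (limma adjusted p = 0.171), and Svep1, an extracellular matrix protein that binds TIE1, one of -2.34 (adjusted p = 0.193). These stand beside the value of Tek, -1.88. DESeq2 called both Ptprb and Svep1 there, against 8.74% of all genes. Without active replicate 3 of week 12 it called Ptprb alone, against 2.08% of all genes.

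Tip cell genes are the nearest in role to Esm1. Of 10 in the list, which did not hold Esm1, 8 had a log2 fold change above 0 in active tumours at week 18, where 51.1% of all genes did. Their median of 0.29 became -0.04, with 4 of 10 above 0, when active replicate 1 was left out. By limma and edgeR 0 of 10 passed, 1 of 10 had an unadjusted limma p under 0.05, against 5.97% of all genes, and DESeq2 called 1, Apln, against 0.269%. Apln, a secreted peptide of tip cells, had 220, 376 and 465 in sedentary and 1958, 752 and 890 in active tumours. Its groups did not overlap, as in 6.03% of all genes in this direction, and the log2 fold change was 1.69 with a standard error of 0.47 (limma adjusted p = 0.824). Its receptor gene Aplnr, expressed by endothelium behind the tip, had 438, 491 and 373 in sedentary and 177, 329 and 390 in active tumours, which overlapped. In active tumours the log2 fold change of Aplnr for week was -1.23 (limma adjusted p = 0.168). DESeq2 called it, as it did 8.74% of all genes, and again without active replicate 3 of week 12, against 2.08%.

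Of 8 genes of the BMP9 and ALK1 pathway, in which endoglin acts, 0 passed by limma or edgeR in any comparison. DESeq2 called 1, Bmper, for week in active tumours, where it called 8.74% of all genes. The medians were 0.35 and -0.04 for activity at weeks 12 and 18, or 0.14 without active replicate 3 of week 12 and -0.09 without active replicate 1 of week 18. Acvrl1, which encodes ALK1, had 1109, 949 and 1102 in active and 974 ± 155 in sedentary tumours of week 12, without the high value that Eng showed in active replicate 3. Other genes of the list varied there. Id1, Id3, Smad6, Smad7 and Bmper were highest of the week 12 tumours in active replicate 3, with Id3 at 1832. Bmpr2 was lowest in it, at 2146, and Tmem100 was neither. The 12 Notch and arterial genes had medians of 0.04 and 0.13 for activity, or 0.12 and -0.12 without these tumours, with 0 passing by limma, edgeR or DESeq2. At an unadjusted limma p under 0.05 were 4 of 12 at week 12, 3 higher and 1 lower, against 4.09% of all genes, and 0 at week 18, against 5.97%. The 11 pericyte and mural genes had medians of 0.22 and 0.30, or 0.00 and -0.02 without these tumours, with 0 passing by limma or edgeR, while DESeq2 called the muscle and mural gene Des at week 12. The share of all genes that DESeq2 called at week 12 is not given here. The 9 venous and adhesion genes had medians of 0.11 and -0.05, or -0.01 and -0.28 without these tumours, with 0 passing by any of the 3 tests and 0 at an unadjusted p under 0.05.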

How the data were processed

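RNA sequencing of 12 mammary tumours was analysed. Per the labels, libraries were stranded; the aligner, the counter and the strand setting are not given in the sources used here. The authors deposited 1 table per week with a normalized signal per gene (counts divided by 1 factor per library), a log2 fold change, a p-value and an adjusted p-value. All values were whole multiples of 1 step per library (tolerance 0.001 reads), which gave back whole reads for 100% of them, and the deposited factors equalled the median of ratios over the 12 libraries, so both weeks are on 1 scale. No column was left unmapped.

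The members, lists and tests were chosen with earlier results of these data known. Limma 3.58.1 in R 4.3.3 was run on log2(value + 1), a scale on which low genes change less than their reads do, after dropping genes whose mean was under 1 in every group. Benjamini-Hochberg adjustment covered all genes tested, with a threshold of 0.05. Activity was fitted on the 6 tumours of a week, and week, interaction and averages on all 12. The design named a count test for raw counts; since values were normalized, edgeR 4.0.16 and DESeq2 1.42.0 on recovered reads served as alternatives, beside other scalings, filters, pseudocounts, leaving out each tumour and the replicate number as a block. Named were all 10 genes, list genes past the threshold (up to 5 per list, otherwise counts, with a few named after their values were seen), the 10 genes most like the mean of the list and the 1 most like each gene, among genes with a mean of at least 50. Replicate numbers were checked for pairing. At week 18 the deviations of same-numbered tumours from their group means correlated at 0.200, 0.216 and 0.177 across genes. These met the rule used (every pair over 0.1). Differently numbered tumours of week 18 ran from -0.187 to 0.0528, but those of week 12 reached 0.229. Same-numbered tumours of week 12 did not meet the rule, at -0.04, -0.12 and 0.15. Whether the numbers pair tumours at week 18 is therefore not settled. P-values measure the spread between tumours labelled as biological replicates. On simulated counts with 200 changed genes, a log2 change of 3 was recovered for 82% of them at week 12, 79% at week 18 and 87% for week in active tumours, and a change of 1 for 0% in each.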

Additional observations from a re-analysis of the deposited data

How the results depend on the processing

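The depth behind the lowest values was 20 reads for Esm1 and 47 for Angpt2. Of 1610 alternatives for single genes, 1543 kept the direction and the side of the threshold, 19 moved past the threshold and 48 turned the direction. The number of genes of the 10 past the threshold was 0 under every alternative for activity at week 12 and week 18, for week in sedentary tumours, for the interaction and for activity averaged over weeks. With the replicate number as a block the count was 0 of 10 in all 7 comparisons, so taking the numbers as pairs changed no call. For week in active tumours DESeq2 called 5, DESeq2 without active replicate 3 of week 12 called 4 (a setting added after seeing the data) and limma fits without 1 tumour called 0 to 1. For week averaged over activity it was 5 with DESeq2 and 4 with DESeq2 without that tumour. The cause of these differences between tests was not tested.

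Directions that turned were those of values near 0 or of wide spread. For activity at week 12, leaving out 1 tumour moved Esm1 between -0.19 and 1.13 and Tek between -0.12 and 0.99. For activity at week 18, it moved Eng between -0.42 and 0.35, Pecam1 between -0.22 and 0.10, Tie1 between -0.208 and 0.0685, Emcn between -0.21 and 0.44, Cdh5 between -0.14 and 0.17 and Angpt2 between -0.0533 and 1.79. Scaling by total reads gave Cdh5 -0.0228, and edgeR and DESeq2 gave Pecam1 0.0242 and 0.0198. For week in sedentary tumours, leaving out 1 tumour moved Esm1 between -0.26 and 0.97, Eng between -0.27 and 0.00923 and Emcn between -0.47 and 0.17. There edgeR and DESeq2 gave Esm1 -0.0435 and -0.0561, and -0.0420 and -0.0552 without active replicate 3 of week 12. For week in active tumours, leaving out 1 tumour moved Angpt2 between -1.12 and 0.73, edgeR and DESeq2 gave 0.61 and 0.58, and without that tumour 0.98 and 0.96. For the interaction, leaving out 1 tumour moved Flt1 between -0.35 and 0.28 and Angpt2 between -0.67 and 1.17, and edgeR and DESeq2 without that tumour gave Flt1 0.33 and 0.32. Averaged over weeks, leaving out 1 tumour moved the activity value of Tek between -0.46 and 0.10. Averaged over activity, the week value of Angpt2 moved between -0.78 and 0.14, edgeR and DESeq2 gave 0.18 and 0.16, and without that tumour 0.36 and 0.35. In each of these the cause was not tested.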

Other observations

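Lymphatic endothelial genes, taken here as markers of lymphatic vessels, had a median log2 fold change of 0.37 over 7 genes in active tumours at week 12 and of -0.65 at week 18. The medians were 0.19 without active replicate 3 of week 12 and 0.05 without active replicate 1 of week 18. At either week 0 of 7 passed by limma, edgeR or DESeq2 or had an unadjusted limma p under 0.05. Their summed normalized count was the highest of the 12 tumours in active replicate 3 of week 12, at 6907. The 8 macrophage genes were close between active and sedentary tumours, with medians of 0.11 at week 12 and 0.10 at week 18, or 0.06 and 0.14 without those tumours. The Notch target gene Hey1, named after its values were seen, was 5429, 4594 and 5961 in sedentary tumours of week 12 and 4403, 8697 and 1348 in active ones, lowest of the 6 in the tumour with the most Pecam1 and Cdh5. Most Notch and arterial genes differed from it. Dll4, Jag1, Notch4, Gja4, Gja5 and Nrarp were highest of the 6 in that tumour. Jag2, Notch1, Hey2, Efnb2 and Cxcr4 were neither highest nor lowest there.

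Spread across tumours also set the 10 genes apart from one another. The ratio of the highest to the lowest of the 12 tumours was 26.2 for Esm1, 13.2 for Angpt2 and 12.0 for Tek, and between 4.17 and 9.16 for the other 7. The SD of the log2 value was 1.31 for Esm1, larger than in 94.8% of 13638 genes, whose median was 0.31.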
